A study of Mus musculus with 12 samples.

Results

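Ubiquitin is a small protein that cells attach to other proteins as a mark for breakdown, relocation or signalling. E3 ligases choose the protein to be marked. They may do so through a RING or U-box domain that recruits the conjugating enzyme, or through a cullin scaffold that carries an exchangeable receptor such as an F-box or DCAF protein. Deubiquitinases remove the mark. In neurons this system is known for its part in turnover of synaptic proteins and receptors. The 5 genes described here are Rnf26, Traf3ip2, Fbxo7 and Dcaf10, which encode ligases or ligase receptors, and Usp2, which encodes a deubiquitinase. They were chosen by symbol because each is listed in a table of genes bound by YTHDF1, and they make up 5 of the 1247 genes listed in all.

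YTHDF1 is a cytoplasmic reader of N6-methyladenosine (m6A), a methyl mark on RNA, and its binding is known to favour translation. The RNAs bound by it were mapped by CLIP-seq, in which ultraviolet light crosslinks protein to RNA and an antibody then precipitates the complex, in striatum of wild-type C57BL/6J mice that received cocaine or saline. The series has 12 samples in 4 groups of 3, which are YTHDF1 CLIP and input RNA without antibody from each treatment, and all groups share the same genotype and tissue. The sources used here do not give the cocaine dose or schedule, or the age, sex and number of animals. The labels name striatal neurons, while the protocol dounced whole frozen tissue, so RNA of any striatal cell could be precipitated. Nothing in the labels says that the 3 libraries of a treatment came from separate animals, so the spread below may be technical.

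The deposited values are numbers of CLIP peaks per gene in each CLIP library, in a cocaine table of 1049 genes and a saline table of 449 genes. The cocaine libraries held 25070 ± 403 listed peaks (SD, n = 3) and the saline libraries 3818 ± 115, a 6.57-fold difference in table totals; read depth is unknown. No listed gene lacked a peak in any library of its table (the minimum was 1), and the lowest mean was 6.33 peaks in the cocaine table and 1.33 in the saline table. A gene that is not listed therefore lacked a peak in at least 1 library or had a mean at or under that table's cutoff; its value is unknown and was not set to 0. Input RNA was not analysed here, and no value is therefore corrected for the abundance of an RNA. Of 20 markers of striatal projection neurons, such as Ppp1r1b and Drd1, 0 were listed in either table; 1 of 10 interneuron markers, 1 of 10 cortical excitatory, 0 of 10 astrocyte, 1 of 12 oligodendrocyte, 2 of 10 microglia and 2 of 10 vascular markers were. Of all coding genes 3.34% were listed, so lists this short do not show which cell types gave the RNA. The part of other cell types in the values below was not tested. Fewer cells of a type and less RNA per cell cannot be told apart in such tissue.

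No gene of the 5 was listed for both treatments. Rnf26, Traf3ip2 and Fbxo7 were listed for cocaine alone, and Usp2 and Dcaf10 for saline alone. Of all cocaine genes, 23.9% were also in the saline table, and of all saline genes 55.9% were also in the cocaine table. Because being listed chose these genes, their numbers of peaks are given as a description and were not tested. No difference between treatments could be tested for any of them, since a gene of 1 table has no values in the other.

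Rnf26 encodes a RING-type ligase of the endoplasmic reticulum membrane, known for positioning endosomes and for regulating the innate immune adaptor STING. In the cocaine libraries, called 1 to 3 by column order, it had 60, 58 and 16 peaks, a mean of 44.7 ± 24.8 (SD, n = 3). Libraries 1 and 2 were close to each other and library 3 was 3.75 times lower than library 1. Without library 3 the mean was 59.0 peaks, and without library 1 it was 37.0. As a share of all listed peaks, Rnf26 held 2.35, 2.34 and 0.642 per 1000 peaks in the same libraries. The variance over the mean of its peak number was 13.8, against a median of 1.97 over all cocaine genes, and 98.8% of them had a lower value. Relative to its mean it was less extreme, with a coefficient of variation (SD over mean) of 55.6%, higher than in 76.0% of the cocaine genes.

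Traf3ip2 encodes Act1, an adaptor of the interleukin-17 receptor that carries a U-box and acts as a ligase towards TRAF proteins. It had 39, 54 and 38 peaks in the cocaine libraries, a mean of 43.7 ± 8.96. All 3 libraries lay within a 1.42-fold range, and its share was 1.74 ± 0.377 per 1000 listed peaks. Its variance over the mean was 1.84, close to the table's median. In library 3 Traf3ip2 stayed near its value of library 1, while Rnf26 was low there, so the low Rnf26 value was not shared by both genes.

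Fbxo7 encodes an F-box protein, the substrate receptor of an SCF ligase. Its human counterpart is linked to an early-onset form of parkinsonism, and it also binds the proteasome regulator PI31. It had 7, 9 and 11 peaks in the cocaine libraries, a mean of 9.0 ± 2.0, and a share of 0.360 ± 0.0837 per 1000. These values were near the lower edge of the table, where the lowest listed mean was 6.33 peaks. Its libraries differed 1.57-fold at most.

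Usp2 encodes a ubiquitin-specific protease known for rhythmic expression under the circadian clock and for stabilising cyclin D1 and Mdm2. It had 1, 5 and 12 peaks in the saline libraries, a mean of 6.0 ± 5.57. The highest library was 12 times the lowest, and its coefficient of variation of 92.8% was higher than in 96.7% of the saline genes. Library 3 set much of this level: without it the mean was 3.0 peaks, and without library 1 it was 8.5. In library 1 Usp2 sat at the smallest value that still allowed a gene to be listed.

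Dcaf10 encodes a WD40-repeat protein that binds DDB1 as a receptor of the CUL4 ligase. It had 9, 7 and 5 peaks in the saline libraries, a mean of 7.0 ± 2.0, and a share of 1.84 ± 0.555 per 1000 listed peaks. Its libraries were 1.8-fold apart at most, and its coefficient of variation of 28.6% was below the saline median of 36.5%. The saline genes were thus unlike in spread, with Usp2 uneven and Dcaf10 even.

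**Figure D1:**
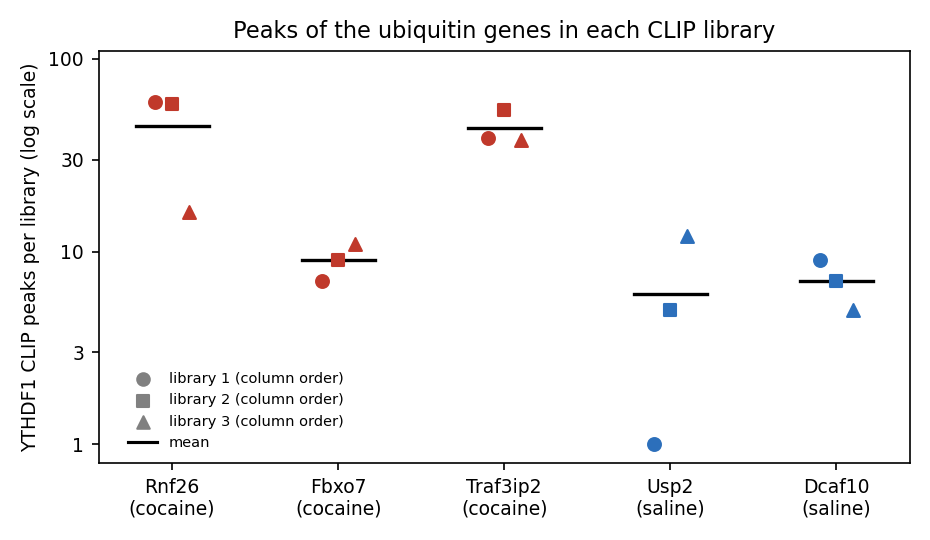
Number of YTHDF1 CLIP peaks (log axis) of the 5 genes in each library of the table that lists them, cocaine in red and saline in blue, with black lines at the means. Rnf26 lies at 60 and 58 peaks in libraries 1 and 2 and at 16 in library 3, and Usp2 spans 1 to 12, while the other 3 genes stay within a 1.8-fold range.

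Rnf26 is a very short gene, and its peaks were dense. It spans 2271 bases of chromosome 9 from 44110781 to 44113051 (mm10, RefSeq annotation of GRCm38.p6), so that only 7 of the 714 cocaine genes with a known length were shorter. Its peaks per kilobase of gene were 26.4, 25.5 and 7.05 in the 3 libraries, a mean of 19.7 ± 10.9. The median over the 714 genes was 0.390 peaks per kilobase, and Rnf26 was 6th in that order. The order depends in part on length, because the cutoff on mean peaks leaves no short listed gene with a low density. Among the 4 cocaine coding genes no longer than Rnf26, itself included, the median was 12.8 mean peaks. Only Rnf26 had 44.7 or more. Only 2 coding genes had more peaks per kilobase, Atp5o, of the mitochondrial ATP synthase, with 31.4 and Igsf8, of an immunoglobulin superfamily membrane protein, with 21.5. In library 1 the peaks of Rnf26 amounted to 1 in every 37.9 bases of the gene. The tables hold no peak positions, and how a peak was given to a gene is not stated in them or in the labels, so whether all these peaks lie within the gene was not tested. With the 1593 and 10716 bases up to the nearest annotated genes on either side added to the length, a setting chosen after the values were seen, Rnf26 had 3.06 peaks per kilobase.

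Per kilobase of gene, the cocaine genes fell in the order Rnf26, Traf3ip2, Fbxo7 in all 3 libraries. For Rnf26 and Traf3ip2 this order comes with the lengths of the genes and did not hold in peaks. Rnf26 had more peaks in libraries 1 (60 against 39) and 2 (58 against 54) and fewer in library 3 (16 against 38). Traf3ip2 spans 42374 bases of chromosome 10 from 39612934 to 39655307 and had 1.03 ± 0.212 peaks per kilobase. Its highest library, at 1.27, was below the lowest of Rnf26, at 7.05. Fbxo7 spans 31425 bases of chromosome 10 from 86020449 to 86051873 and had 0.286 ± 0.0636 peaks per kilobase, at most 0.350 in a library, below the lowest of Traf3ip2 at 0.897. Traf3ip2 was above 74.9% of the cocaine genes on this scale and Fbxo7 above 43.1%. Neighbours in this order did not overlap over libraries on gene length; with the gaps beside the genes added, Rnf26 had 1.10 peaks per kilobase in library 3, which is below the 1.27 of Traf3ip2 in library 2.

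In the saline table, Usp2 and Dcaf10 had nearly equal densities. Usp2 spans 28607 bases of chromosome 9 from 44067021 to 44095627 and had 0.210 ± 0.195 peaks per kilobase. Dcaf10 spans 38757 bases of chromosome 4 from 45340976 to 45379732 and had 0.181 ± 0.0516. Their ranges over libraries, 0.0350 to 0.419 and 0.129 to 0.232 peaks per kilobase, overlapped, and Usp2 was the higher in only 1 of 3 libraries. Both lay above the saline median of 0.050 peaks per kilobase, Usp2 above 77.9% and Dcaf10 above 75.9% of 344 genes. Their order did not exceed the spread between libraries. Densities of the 2 tables are not set against each other, because the tables differ in total peaks and in cutoff.

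**Figure D2:**
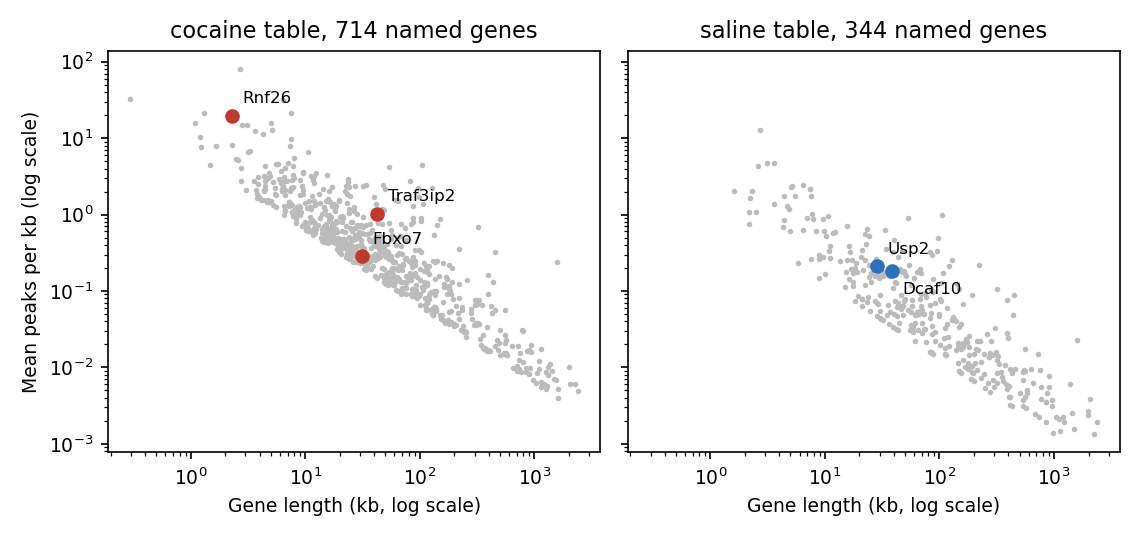
Mean peaks per kilobase against gene length, both on log axes, for the 714 cocaine and 344 saline genes with a known length (grey) and the 5 ubiquitin genes (coloured). The straight lower edge is the cutoff on mean peaks of each table; Rnf26 stands at 19.7 peaks per kilobase among the shortest genes and Fbxo7 near the edge.

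The absence of each gene from the other table can be read against genes with similar numbers of peaks. Of the 50 cocaine genes closest to Rnf26 in mean peaks, at 35.7 to 56.3 peaks, 29 (58%) were also in the saline table. For Traf3ip2 it was 27 of 50 (54%), and for Fbxo7, among genes at 9.0 to 9.33 peaks, 5 of 50 (10%). To be missing from the saline table was thus common at the level of Rnf26 and Traf3ip2 and usual at that of Fbxo7. Of the 50 saline genes closest to Usp2, 41 (82%) were also in the cocaine table, and of those closest to Dcaf10, 44 (88%). Most saline genes at the level of Dcaf10 and Usp2 were thus in both tables. Listing is what chose the 5 genes, so these absences are a description and were not tested. For Usp2 the comparison rests on library 3, without which the mean was 3.0 peaks. Of the 50 saline genes nearest to that level, 36% were in the cocaine table.

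Shares of listed peaks give another reading of these absences. The lowest listed saline mean equals 0.349 per 1000 peaks of a saline library, and the mean share of Rnf26 in cocaine was 5.09 times that value, of Traf3ip2 4.99 times and of Fbxo7 1.03 times. The lowest listed cocaine mean equals 0.253 per 1000 peaks of a cocaine library, and the saline shares of Dcaf10 and Usp2 were 7.29 and 6.14 times it. Without saline library 3 the multiple for Usp2 was 3.18. An equal share in the other treatment would thus have cleared the cutoff on the mean for Rnf26, Traf3ip2, Dcaf10 and Usp2, also with any 1 library left out. For Fbxo7 it lay at the cutoff within the spread between libraries, with a multiple of 0.913 without cocaine library 3. A gene also had to have a peak in every library to be listed, so these multiples are not bounds on a difference between treatments. The totals under the shares are also unlike, because the tables have different cutoffs. In peaks rather than shares, the saline mean of Usp2, 6.0, was below the lowest listed cocaine mean of 6.33. That of Dcaf10, 7.0, was just above it. The cocaine means of Rnf26, Traf3ip2 and Fbxo7 were above the lowest listed saline mean of 1.33. The reading by shares thus depends on the scaling, and it was not tested. A single gene with a mean of 825 peaks is part of the saline total of 3818, and the multiples were not computed without it.

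**Figure D3:**
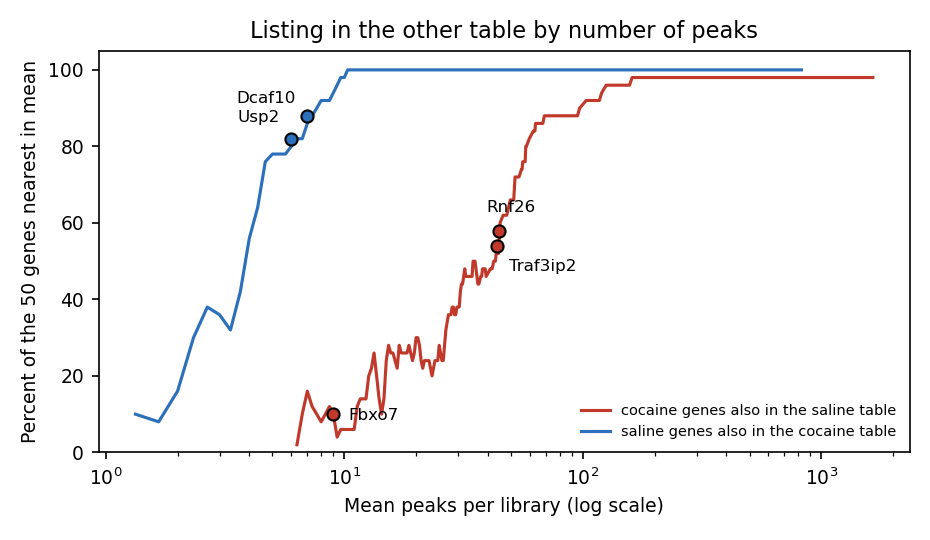
Percent of the 50 genes nearest in mean peaks that are also listed in the other table (vertical axis), along the mean number of peaks (log axis), for cocaine genes in red and saline genes in blue; circles mark the 5 genes. At the level of Rnf26 and Traf3ip2 58% and 54% of such genes are in both tables, at that of Fbxo7 10%, and at that of Usp2 and Dcaf10 82% and 88%.

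The deubiquitinase gene Usp2 and the ligase gene Rnf26 are neighbours on chromosome 9. They are separated by 15153 bases that hold C1qtnf5, Mfrp and the non-coding Gm38444, none of which was listed under its symbol. Usp2 lies on the plus strand and Rnf26 on the minus strand. Among the 891 listed genes with a known position, Usp2 and Rnf26 are each the nearest to the other. The former was listed for saline alone and the latter for cocaine alone. How many such pairs scattered genes would give was not worked out, and the distance used here was not fixed in the plan. Of 547 genes with a symbol and position listed for cocaine alone, 9 (1.65%) had a gene listed for saline alone within 20 kilobases. Of 177 listed for saline alone, 8 (4.52%) had one listed for cocaine alone.

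Another of these is Traf3ip2. The non-coding E130307A14Rik covers 33897 bases of it, 80.0% of its length, and was listed for saline alone with 1, 1 and 4 peaks. The non-coding Gm16364 shares 749 bases with its other end and was listed for cocaine alone with 17, 4 and 11 peaks. At this locus the cocaine table thus named Traf3ip2 and Gm16364, and the saline table named E130307A14Rik.

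Fbxo7 shares 3128 bases, 9.95% of its length, with Syn3, a synapsin gene listed in both tables. The 3 cocaine libraries held 155, 147 and 131 Syn3 peaks, and the saline libraries 51, 27 and 40. Usp2 shares 62.8% of its length with the non-coding Gm39325, which was not listed under its symbol. Rnf26 and Dcaf10 overlap no annotated gene, while 77.4% of the 731 listed coding genes overlap another. The tables give neither strand nor position of a peak, so peaks of Traf3ip2, Fbxo7 and Usp2 cannot be separated from those of the genes they overlap. Among listed genes with a known position, the nearest to Dcaf10, Xpa, is 795487 bases away.

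**Figure D4:**
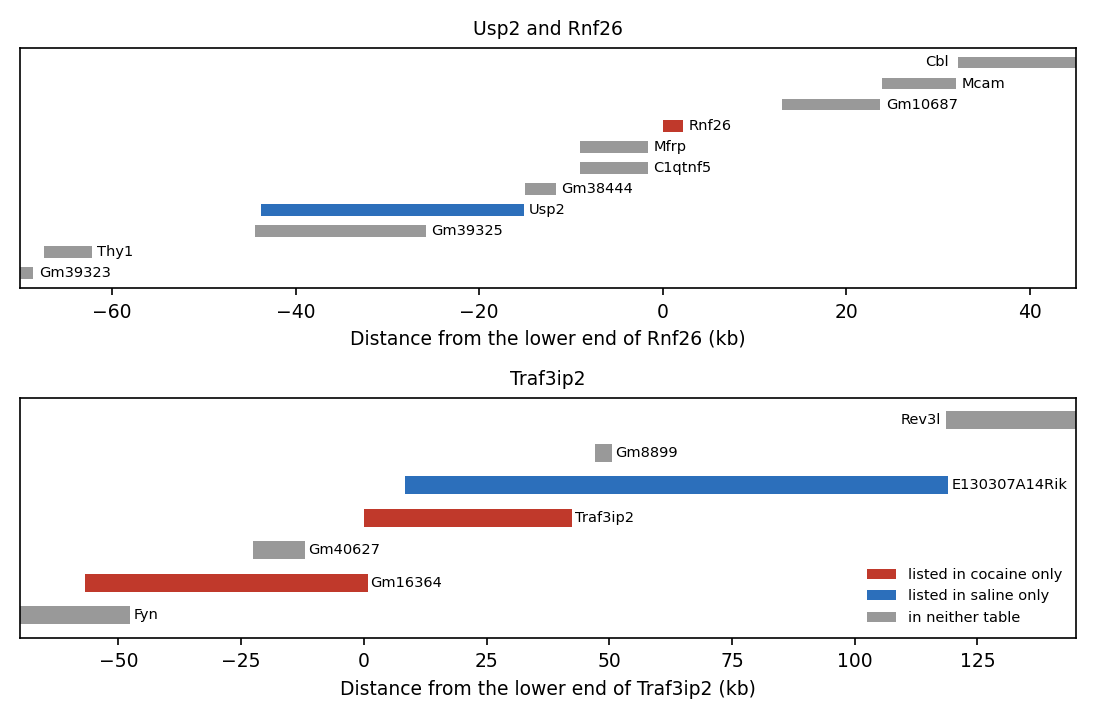
Annotated genes around Usp2 and Rnf26 (upper map) and around Traf3ip2 (lower map), drawn to scale in kilobases from the lower end of Rnf26 or Traf3ip2; red genes are listed for cocaine alone, blue for saline alone and grey in neither table, and genes at the edges are cut by the frame. Usp2 and Rnf26 lie 15153 bases apart, and E130307A14Rik covers 80.0% of Traf3ip2.

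The genes most like each member were taken as the 3 with the smallest Euclidean distance in log2 peak number over the 3 libraries of its table, among 716 other cocaine or 344 other saline genes with a symbol. Closest to Rnf26 was the non-coding Gm38505 with 56, 44 and 25 peaks, at a distance of 0.76, then 9130019P16Rik (0.80) and 1700007J10Rik (0.90). Closest to Traf3ip2 were Gm10644 (0.27), the deubiquitinase family gene Usp50 with 48, 49 and 38 peaks (0.33), and Gm13872 (0.34). Closest to Fbxo7 were Serpinb6a, a serpin gene (0.20), Slc3a1, an amino acid transporter subunit gene (0.22), and Cdip1 (0.27). Closest to Dcaf10 were Tubgcp4, of the gamma-tubulin complex (0.43), Npas1, a neuronal transcription factor gene (0.51), and Impg1 (0.53). For Usp2 even the closest gene, Mob3b with 1, 4 and 6 peaks, was 1.05 away, followed by Gpc5, a glypican gene (1.07), and 9530026P05Rik (1.26). Usp2 and Rnf26, the uneven genes, thus had the more distant nearest genes. With 3 libraries these distances are a description only.

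Other genes of the ubiquitin system were counted from lists of 16 families. Of 632 coding genes in these lists, 29 were listed in either table (4.59%), against 3.34% of all 21900 coding genes of the annotation. Without the 5 genes above it was 24 of 627 (3.83%), and no test was made. By table, 21 were listed for cocaine and 13 for saline, 5 of them in both, where 2.58% and 1.33% of all coding genes were listed. At the cocaine cutoff of a mean above 6 peaks, 4 of the 13 saline genes were left, Dcaf10, Fbxw8, Tifa and Ube3a.

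The family counts that follow stand beside the 3.34% of all coding genes that were listed, and none was tested. Of 27 HECT ligases 3 were listed. Ube3a, the gene of Angelman syndrome, was in both tables. Herc3 and Wwp1 were listed for cocaine alone with 14.7 ± 8.62 and 9.33 ± 0.577 peaks. Of 83 genes named Rnf, 6 were listed. Rnf26 had 19.7 peaks per kilobase and the other 4 cocaine genes of this name, Rnf141, Rnf180, Rnf213 and Rnf216, between 0.0386 and 0.326, and Rnf19a was listed for saline alone with 3 peaks in every library. Among TRAF proteins and their partners 2 of 14 were listed, Traf3ip2 and Tifa, an adaptor that activates TRAF6. Tifa was in both tables; its cocaine libraries held 43, 31 and 30 peaks and its saline libraries 9, 7 and 9.

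Of 84 F-box genes, 5 were listed. Beside Fbxo7, Fbxl2 had 34, 31 and 14 peaks for cocaine alone, Kdm2b, a histone demethylase gene with an F-box, had 4, 10 and 6 for cocaine alone, and Fbxl7 had 1, 1 and 5 for saline alone. Fbxw8, whose protein works with CUL7, was in both tables; its cocaine libraries held 40, 24 and 30 peaks and its saline libraries 3, 7 and 9. Dcaf10 was the only 1 of 20 CUL4 receptors listed, and 0 of 29 cullins, adaptors and neddylation genes were, where 3.34% of all coding genes were listed.

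Of 59 USP deubiquitinases, 6 were listed, and 0 of 40 other deubiquitinases, where 3.34% of all coding genes were listed. Usp1, which acts in DNA repair, and Usp37 were listed for cocaine alone with 6, 5 and 8 peaks and 10, 30 and 19 peaks, Usp2 and Usp46 for saline alone, and Usp34 and Usp50 in both. Usp46, whose protein acts on glutamate receptors, had 1, 4 and 3 peaks. None of 3 E1 enzymes, 51 proteasome genes or 4 ubiquitin genes was listed, and of 40 E2 enzymes only Ube2e2, for saline alone with 2 peaks in every library. With 3.34% of all coding genes listed, a count of 0 in families of these sizes is not read as a result. The remaining listed ligases were Trim34a, Lnx1 and Mid1 for cocaine alone and Mylip and Pdzrn4 for saline alone.

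**Figure D5:**
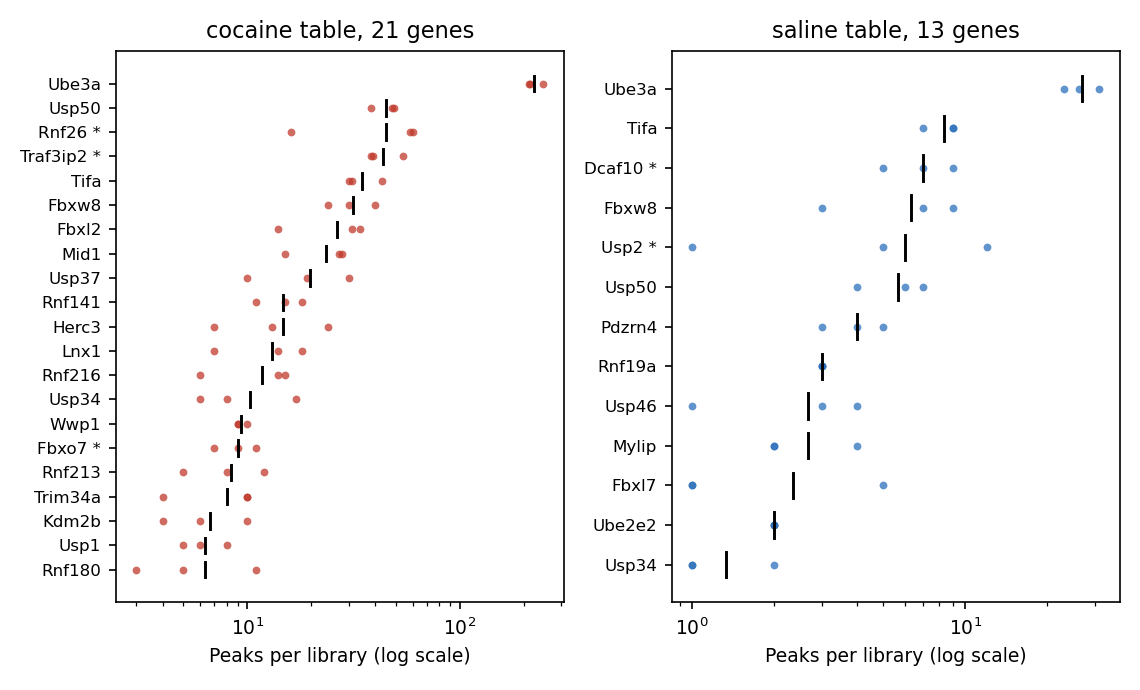
Peaks per library (log axis) of the 21 ubiquitin-system genes in the cocaine table (red) and the 13 in the saline table (blue), with 1 point for each of 3 libraries and a black line at the mean; asterisks mark the genes described in detail, and points with equal values coincide. Ube3a leads both tables, and Usp50, Rnf26 and Traf3ip2 follow it in cocaine.

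The 5 genes in both tables show how ubiquitin genes compared between treatments where a comparison was possible. In all 5, every cocaine library had more peaks than every saline library, as was so for 77.7% of the 251 genes in both tables. The ratio of mean peaks was 8.4 for Ube3a, 7.94 for Usp50, 7.75 for Usp34, 4.95 for Fbxw8 and 4.16 for Tifa. Their median was 7.75, against 4.54 over the 251 genes. The lowest listed mean was 6.33 peaks in cocaine and 1.33 in saline. A gene with few saline peaks, such as Usp34 with 1, 1 and 2, is thus in both tables only at a high ratio. The ratios and the separation of libraries depend in part on these cutoffs and are a description only. Summed over those 251 genes, cocaine libraries held 13861 ± 88.6 peaks and saline libraries 3274 ± 108 (exact 2-sided permutation test, p = 0.1, the smallest that 3 against 3 allow). A single gene with a mean of 825 peaks made up a sizeable part of the saline sum, where the next highest mean was 103. The highest cocaine mean was 1645 peaks. The sums were not computed without such genes. Each gene's share of the peaks in genes of both tables was tested with edgeR's quasi-likelihood test over 202 of them, after a filter on low counts that left out Usp34. Of these, 10.4% were called higher in cocaine and 17.8% lower at an adjusted p under 0.05. That balance of 21 higher and 36 lower moved with the scaling, to 31 and 29 without TMM factors and to 5 and 52 on shares of all listed peaks.

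Of the 4 ubiquitin genes tested, 1 was called higher in cocaine and 0 lower. Their log2 differences in share had both signs, with a median of 0.34 against -0.02 over all genes tested. A median over so few genes does not show a shift of the family. Ube3a had 213, 247 and 212 peaks in the cocaine libraries and 31, 23 and 26 in the saline libraries. Its share differed by 0.76 on the log2 scale (SE 0.20, edgeR adjusted p = 0.00958). The call was lost without cocaine library 1, 2 or 3 (edgeR adjusted p = 0.0661, 0.120 and 0.0647) and on shares of all listed peaks (0.236). Usp50 had a log2 difference of 0.67 (SE 0.42, edgeR adjusted p = 0.275), Tifa of -0.25 (SE 0.40, 0.718) and Fbxw8 of -0.0027 (SE 0.47, 0.996). The sign for Fbxw8 turned with the scaling, and neither it, Tifa nor Usp50 passed the test. Ube3a overlaps the non-coding Snhg14, and peaks of the 2 cannot be told apart.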

How the data were processed

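The authors deposited counts, per the file headers and values: how many CLIP peaks (not reads) a gene had in each of 3 libraries, in 2 tables, each with the authors' mean, another deposited value used only as a check. Tools and build in the submitters' processing notes are STAR, cutadapt and mm10; the table names point to CLIPper. Its version and threshold, the use of input and the peak-to-gene rule are unstated there. A table's treatment was read from a letter in its name that opens the library names; columns carry no replicate number. Repeated lines of a gene were counted once. Of 894 genes with 1 symbol, 891 were found in RefSeq (GRCm38.p6), which gave positions and lengths; 348 genes have no symbol.

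The 251 genes of both tables were tested by edgeR 4.0.16 (R 4.3.3; TMM, filterByExpr, Benjamini-Hochberg, FDR 0.05); DESeq2 1.42.0 was an alternative. The fit was checked on simulated data. Python 3.11.15 and pandas 2.3.3 were used. The text names the 5 genes, listed genes of the family lists, overlapping genes and the 3 genes nearest in log2 peaks; others named (Atp5o, Igsf8, Xpa, the genes between Usp2 and Rnf26) were chosen after their values were seen. The members and lists were chosen with earlier results of these data known. No promoter, protein or RNA sequence is shown, because the tables hold no peak position. Read depth is unknown, so no counting interval is given.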

Additional observations from a re-analysis of the deposited data

How the results depend on the processing

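The columns carry no replicate number. No paired analysis was possible because the libraries of the tables could not be matched by number across treatments. Keeping the first line of a repeated gene, ranking by the share of listed peaks or by the median, and the cocaine cutoff in the saline table moved no mean or rank of the 5 genes by more than the spread between libraries; at that cutoff Usp2, with 6.0 peaks, has no value. Leaving out 1 library gave means of 37.0 to 59.0 for Rnf26, 38.5 to 46.5 for Traf3ip2, 8 to 10 for Fbxo7, 3.0 to 8.5 for Usp2 and 6.0 to 8.0 for Dcaf10, and ranks by mean of 65 to 120, 89 to 115, 649 to 804, 89 to 268 and 94 to 134.

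Among genes in both tables, the 21 genes with a higher share in cocaine became 31 without TMM factors and 5 on shares of all listed peaks, and 6 to 21 with 1 library left out. The 36 with a lower share became 29 and 52 under the same scalings and 23 under DESeq2, and 17 to 28 with 1 library left out, where fewer genes were tested without a cocaine library. These scalings moved the median log2 difference of the 202 genes by 0.21 and -0.40, and DESeq2 by 0.15. The cause of the other shifts was not tested. Ube3a kept its sign in all settings, at log2 differences of 0.36 (all listed peaks) and 0.49 to 0.95 (1 library left out). Fbxw8 turned to 0.21 without TMM factors, 0.15 under DESeq2, 0.095 without a filter, 0.17 without saline library 2 and 0.41 without saline library 3 (range with 1 library left out -0.27 to 0.41). The ratio of summed peaks stayed between 4.17 and 4.31 with 1 library left out. It was not computed without the genes with the most peaks. The saline count of 13 ubiquitin genes became 4 at the cocaine cutoff and 1 at a mean of at least 10 peaks, a cutoff chosen after seeing the data; the cocaine count of 21 became 14 there and 18 without the 5 genes. Matching by synonym as well gave 21 and 14. Read depth is unknown, so its effect on precision could not be measured.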
